A study of Homo sapiens with 10 samples.

Results

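The lysosome and cathepsin genes are a list of 49 genes for the enzymes, membrane proteins, proton pump and regulators of the lysosome, together with an autophagy receptor and ubiquitin-like proteins of the autophagosome. They were chosen by name, from the function of their products, with earlier results of these data already known. Of the 49, 35 had a probe set with a gene name on the array, out of 14884 named genes in all. The other 14 were not analysed here: SCARB2, CLN3, GAA, GLA, GLB1, GUSB, IDUA, SMPD1, LIPA and the 5 listed subunits of the vacuolar proton pump, ATP6V0D1, ATP6V1A, ATP6V1B2, ATP6V1H and ATP6AP1. Each of the 35 measured genes had a single named probe set.

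RNA came from MCF10A, an immortalised but non-tumorigenic line of human mammary epithelium. One group was the parental line with intact H2A.X (5 arrays) and the other the same line carrying a knockout of H2A.X, the histone variant that is phosphorylated near DNA breaks (5 arrays). All 10 samples came from cells grown for 48 h in DMEM/F12 with 5% horse serum and penicillin-streptomycin. The medium also held 20 ng/ml EGF, 500 ng/ml hydrocortisone, 100 ng/ml cholera toxin and 10 μg/ml insulin. The labels do not say whether the knockout was 1 clone, or whether the 5 samples of a group were separate cultures, so p-values reflect the scatter among these arrays, part or all of which may be technical. In whole-culture RNA, fewer cells of a type and less RNA per cell cannot be told apart.

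Lysosomes are acidic compartments in which hydrolases break down material delivered by endocytosis and by autophagy. Cathepsins are their proteases; most are cysteine proteases, while cathepsin D is an aspartic and cathepsin A a serine protease. The transcription factors TFEB, TFE3 and MITF bind an E-box within the CLEAR element found upstream of many lysosomal genes, and TFEB and TFE3 are held in the cytoplasm when mTORC1 is active on the lysosomal surface. In breast epithelium, secreted cathepsins are also known for degrading extracellular matrix.

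The CACGTG E-box of the CLEAR element is shown where it lies in the promoters of the measured genes, because it is the sequence through which the 3 transcription factors on the list are known to act. RefSeq promoter windows (GRCh38.p14, 250 bases before to 50 after an annotated transcript start) were found for 24 of the 35 genes, in 38 windows. The E-box, a palindrome and so the same on both strands, was in a window of 8 of these 24 genes (33.3%), against 1187 of the 10749 measured genes with a window and 8.77% of all genes in the promoter table. Counted by window, it was in 21.1% of those of the list and 7.26% of all in the promoter table. The element is known from lysosomal genes, so a higher share on a list of such genes says nothing about the knockout. The longer CLEAR core TCACGTGA, also a palindrome and containing the E-box, was in those of 3 of 24 (12.5%), LAMP1, CTSA and MCOLN1, against 1.75% of measured genes. Each stretch below runs 5′ to 3′ on the strand of its gene, with the E-box in capitals. A match describes the letters only and does not show that a factor binds there.
CTSA, chr20:45891281-45891310, plus strand: gaggaagactgtCACGTGgcgccggagttc
CTSA, chr20:45891298-45891327, plus strand: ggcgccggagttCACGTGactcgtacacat
CTSD, chr11:1763957-1763986, minus strand: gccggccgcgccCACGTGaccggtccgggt
CTSF, chr11:66568712-66568741, minus strand: acatataacaagCACGTGatagaggtcagt
CTSF, chr11:66568640-66568669, minus strand: ccctgcgcgcccCACGTGcctcctgtaaac
ARSB, chr5:78986101-78986130, minus strand: taattcaataagCACGTGactaaaggattt
MCOLN1, chr19:7522571-7522600, plus strand: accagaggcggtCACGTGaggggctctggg
MCOLN1, chr19:7522598-7522627, plus strand: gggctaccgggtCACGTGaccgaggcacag
LAMP1, chr13:113297199-113297228, plus strand: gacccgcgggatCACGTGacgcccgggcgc
LAMP1, chr13:113297226-113297255, plus strand: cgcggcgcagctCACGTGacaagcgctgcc
NEU1, chr6:31862930-31862959, minus strand: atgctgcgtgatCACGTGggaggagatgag
CD63, chr12:55729172-55729201, minus strand: ccgggtaggggcCACGTGgccctggccggg

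These 12 stretches cover all 8 genes; LAMP1 had 4 further E-boxes, farther upstream. Counted from the transcript start, with bases before it negative, the nearest E-box began at -25 in CTSA, -47 in CTSD, -51 in CTSF, -14 in MCOLN1, -1 in LAMP1, -126 in NEU1, -160 in ARSB and -180 in CD63. The 8 genes did not share a direction in the knockout. CTSA, CTSD and CTSF rose, ARSB fell, and LAMP1, MCOLN1, NEU1 and CD63 did not pass the test described next. Of the 16 genes whose windows held no E-box, 5 rose, 6 fell and 5 did not pass.

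Array values are log2 signals, so a difference of 1 is a 2-fold change, and differences are given as knockout minus parental. A gene passed the test when limma gave an adjusted p under 0.05 over all 14884 genes. By that rule 5108 genes passed, or 34.3% of those tested, 15.3% higher and 19.0% lower in the knockout. Array medians lay between 4.26 and 4.35. Knockout replicate 1 stood apart: its median absolute deviation from the other arrays of its group was 0.13 over all genes, against 0.08 to 0.10 in the other 9. H2AX was not analysed here, so the groups rest on the labels. Of 6 measured genes of a basal mammary list, KRT5, KRT14, EGFR, EPCAM and SFN exceeded 5.49, the middle value of all gene means (the array midpoint in what follows), in both groups. KRT15 was under it in parental cells (5.12) and above it in the knockout (8.37). EPCAM, an epithelial gene not particular to basal cells, fell and the other 5 rose.

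Lysosome and cathepsin genes changed in both directions in the knockout. Of the 35 measured, 8 rose (22.9%), 11 fell (31.4%) and 16 did not pass, with a median difference of -0.04 beside 0.00 over all genes. The median absolute difference was 0.22, beside 0.14 over all genes. Most of these genes are bright on the array, and brighter genes passed more often in general. Of the 29 whose mean over the 10 arrays exceeded the array midpoint, 17 passed (58.6%), and of all 7442 genes above it 55.6% did. The share of lysosome and cathepsin genes that passed was therefore near that of bright genes in general. In 20 of the 35 (57.1%) the arrays of the 2 groups did not overlap, against 28.2% of all genes. Above the array midpoint this held for 19 of 29 (65.5%) and for 48.9% of all genes. Of the 35, only LAMP3 and GM2A both passed and changed at least 2-fold, 2 of 35, where 2.81% of all genes did.

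**Figure D1:**
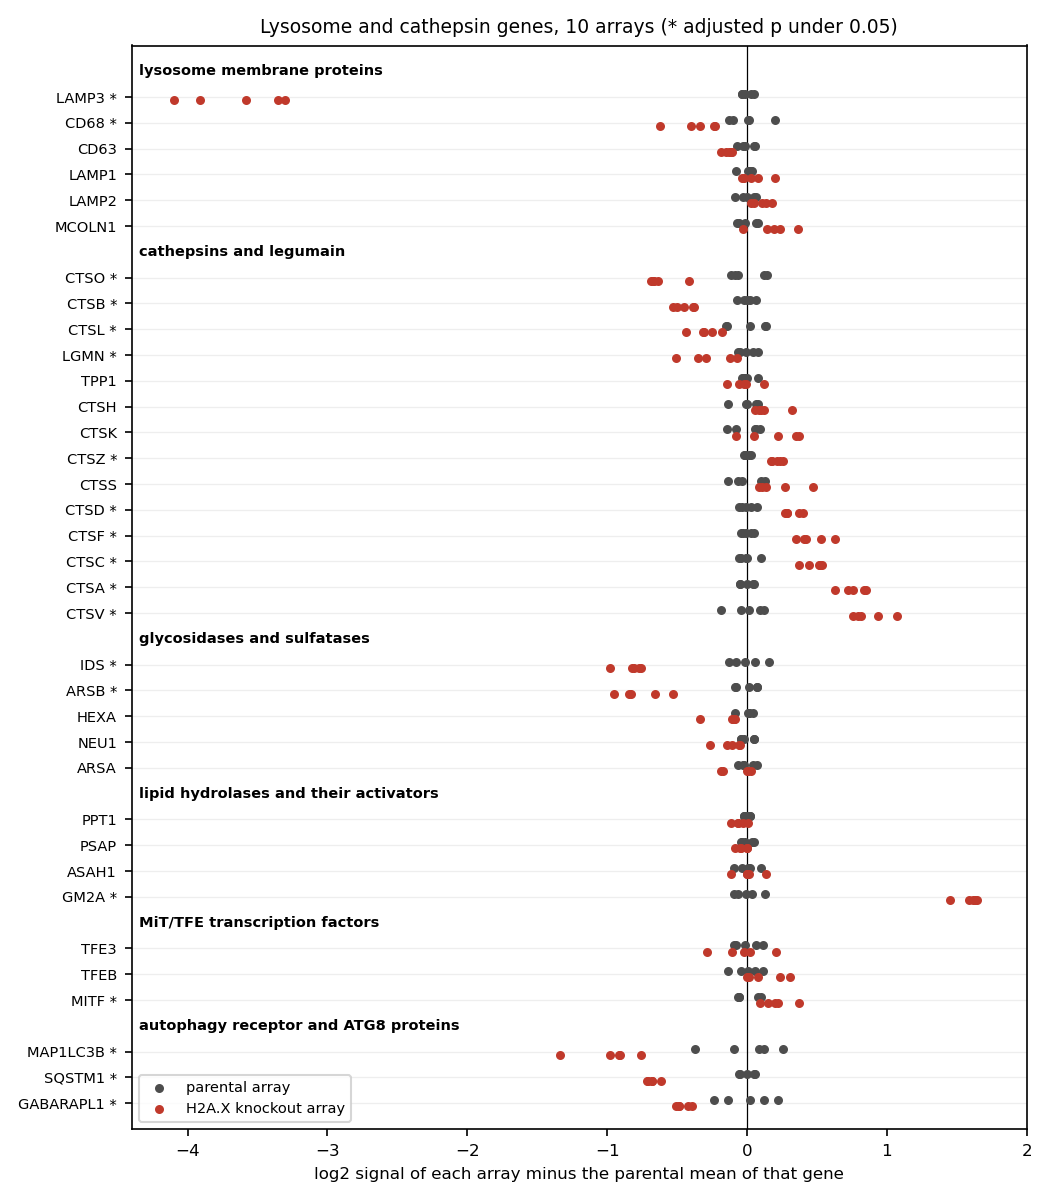
Log2 signal of every array minus the parental mean of the same gene, for the 35 measured genes in groups by role; grey points are the 5 parental and red points the 5 knockout arrays, and a star marks an adjusted p under 0.05. LAMP3 lies farthest left and GM2A farthest right, while the red and grey points of PSAP, PPT1, ASAH1 and TPP1 overlap.

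Among proteins of the lysosomal membrane, LAMP3 lost most of its signal while the abundant LAMP1 and LAMP2 did not pass. LAMP3, an inducible relative of LAMP1 that is known from dendritic cells and from cells under unfolded protein stress or low oxygen, was at 7.98, 7.998, 8.06, 8.04 and 7.98 in parental arrays. In the knockout it was at 4.71, 3.92, 4.66, 4.43 and 4.10. All parental arrays lay within a narrow band and every knockout array far under it. The difference was -3.65 ± 0.13 (SE; adjusted p = 7.54e-10), 12.5-fold lower, and ranked 4 by size among all 14884 genes. The fold is uncertain because the knockout mean, 4.36 ± 0.35 (SD, n = 5), lay under the array midpoint.

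CD68, a heavily glycosylated lysosomal membrane protein best known as a macrophage marker, was at 8.11, 8.25, 8.25, 8.44 and 8.14 in parental arrays and at 7.62, 8.01, 7.84, 7.91 and 8.004 in the knockout. Every knockout array was lower, and the difference was -0.37 ± 0.09 (SE; adjusted p = 0.00485). Of 7 measured myeloid markers 6 lay under the array midpoint in both groups. Of these 7, CSF1R rose (0.72), CD14 fell (-0.76) and 5 did not pass. The summed linear signal of the 7 ranged from 181 to 209 in parental and from 208 to 262 in knockout arrays. CSF1R was the brightest of the 7 in both groups (means of 6.30 and 7.03) and weighs most in that sum. The part of these markers in the CD68 value was not tested. The other 4 membrane proteins did not pass. LAMP1 differed by 0.05 (95% interval -0.08 to 0.18) and LAMP2 by 0.10 (-0.02 to 0.22). CD63, a tetraspanin of late endosomes and exosomes, differed by -0.14 (-0.24 to -0.03; adjusted p = 0.0528), although all 5 knockout arrays lay under all 5 parental arrays. MCOLN1, the calcium channel of the lysosome, differed by 0.18 (adjusted p = 0.0701), and by 0.24 without knockout replicate 1, where it passed (adjusted p = 0.0114).

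The proteases were the only role group with genes past the test in both directions. Of 14 measured, 6 rose, 4 fell and 4 did not pass, with a median of 0.20. The share that passed was 71.4%, against 34.3% of all genes and 55.6% of those above the array midpoint. Among the 10 cysteine cathepsins alone, 4 rose (CTSC, CTSF, CTSV and CTSZ), 3 fell (CTSB, CTSL and CTSO) and 3 did not pass (CTSH, CTSK and CTSS).

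CTSV, a close relative of cathepsin L with a narrower tissue range, showed the largest protease rise. Its signal was 4.88, 4.82, 4.67, 4.98 and 4.95 in parental arrays and 5.62, 5.80, 5.93, 5.68 and 5.65 in the knockout. The groups were far apart, with a difference of 0.87 ± 0.08 (SE; adjusted p = 1.60e-06), 1.83-fold, from a parental level that was under the array midpoint. CTSL itself, a broadly expressed endopeptidase, went the other way. It was at 7.84, 7.85, 7.73, 7.57 and 7.57 in parental arrays and at 7.28, 7.40, 7.46, 7.53 and 7.41 in the knockout, a difference of -0.30 ± 0.08 (adjusted p = 0.00729). The nearest arrays of the 2 groups were close, 7.57 against 7.53. The genes resemble each other in sequence and both lie on chromosome 9, and whether their probe sets share sequence was not tested. Probe sets of the related pseudogenes CTSLP2, CTSLP8 and CTSL3P differed by -0.09, -0.08 and -0.10 and did not pass. Parental and knockout means were 5.79 and 5.70 for CTSLP2, 2.23 and 2.15 for CTSLP8, and 3.07 and 2.97 for CTSL3P. The last 2 lay far under the array midpoint, and these values cannot show whether sequence is shared.

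CTSA, the serine carboxypeptidase that also protects neuraminidase 1 and beta-galactosidase in a complex, was at 8.69, 8.64, 8.59, 8.68 and 8.59 in parental arrays and at 9.27, 9.40, 9.47, 9.49 and 9.36 in the knockout. It rose by 0.76 ± 0.06 (SE; adjusted p = 4.07e-07), 1.69-fold, and every knockout array exceeded every parental array. Its partner gene NEU1 did not pass, with a difference of -0.12 (95% interval -0.25 to 0.00; adjusted p = 0.123), although all knockout arrays lay under all parental arrays. CTSD, the major aspartic protease of lysosomes, was at 11.50, 11.46, 11.58, 11.54 and 11.47 in parental arrays and at 11.79, 11.80, 11.92, 11.88 and 11.80 in the knockout. This strong signal rose slightly, by 0.32 ± 0.05 (adjusted p = 0.000285), and all knockout arrays lay above all parental arrays.

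CTSC, the dipeptidyl peptidase that activates serine proteases of granules, was at 7.93, 7.97, 8.08, 7.97 and 7.92 in parental arrays and at 8.50, 8.42, 8.49, 8.51 and 8.35 in the knockout. CTSF, a cysteine cathepsin with a long propeptide, was at 5.82, 5.80, 5.77, 5.74 and 5.73 and at 6.18, 6.30, 6.12, 6.40 and 6.20. CTSZ, a carboxypeptidase, was at 8.49, 8.50, 8.54, 8.51 and 8.53 and at 8.69, 8.69, 8.75, 8.78 and 8.73. In all 3 genes every knockout array exceeded every parental array. The rises were 0.48 for CTSC, 0.47 for CTSF and 0.21 for CTSZ, with adjusted p of 1.69e-05, 4.69e-05 and 0.00301.

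CTSO showed the largest protease fall, and CTSB, one of the most studied cathepsins in breast cancer invasion, also fell. CTSO, a cysteine cathepsin with a broad tissue range, was at 6.80, 6.62, 6.82, 6.59 and 6.57 in parental arrays and at 6.01, 6.26, 5.995, 6.004 and 6.05 in the knockout, a difference of -0.61 ± 0.07 (SE; adjusted p = 2.37e-05). CTSB was at 6.28, 6.19, 6.23, 6.21 and 6.14 against 5.68, 5.76, 5.71, 5.83 and 5.83, a difference of -0.45 ± 0.05 (adjusted p = 2.24e-05). LGMN, the asparaginyl endopeptidase that processes several cathepsins, was at 7.66, 7.62, 7.53, 7.58 and 7.52 against 7.08, 7.29, 7.51, 7.46 and 7.23, and fell by 0.27 (adjusted p = 0.0196). The knockout values of LGMN were widely spread, and the highest of them, 7.51, came close to the lowest parental array, 7.52.

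The 4 proteases that did not pass were of different kinds. TPP1, a tripeptidyl peptidase whose loss causes a neuronal storage disease, differed by -0.02 (95% interval -0.15 to 0.11). CTSH, an aminopeptidase, differed by 0.14 (-0.01 to 0.28), CTSK, the collagenase of osteoclasts, by 0.18 (-0.01 to 0.38), and CTSS, an enzyme of antigen presenting cells, by 0.22 (0.03 to 0.40; adjusted p = 0.0642). CTSH and CTSS lay under the array midpoint in both groups and CTSK in the parental group. Differences may be compressed at such levels, which was not tested. CTSS passed without knockout replicate 1 (0.25, adjusted p = 0.0448) or parental replicate 5 (0.25, adjusted p = 0.0479), and CTSK without knockout replicate 4 (0.25, adjusted p = 0.0357). All 3 measured osteoclast markers lay under the array midpoint in both groups.

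**Figure D2:**
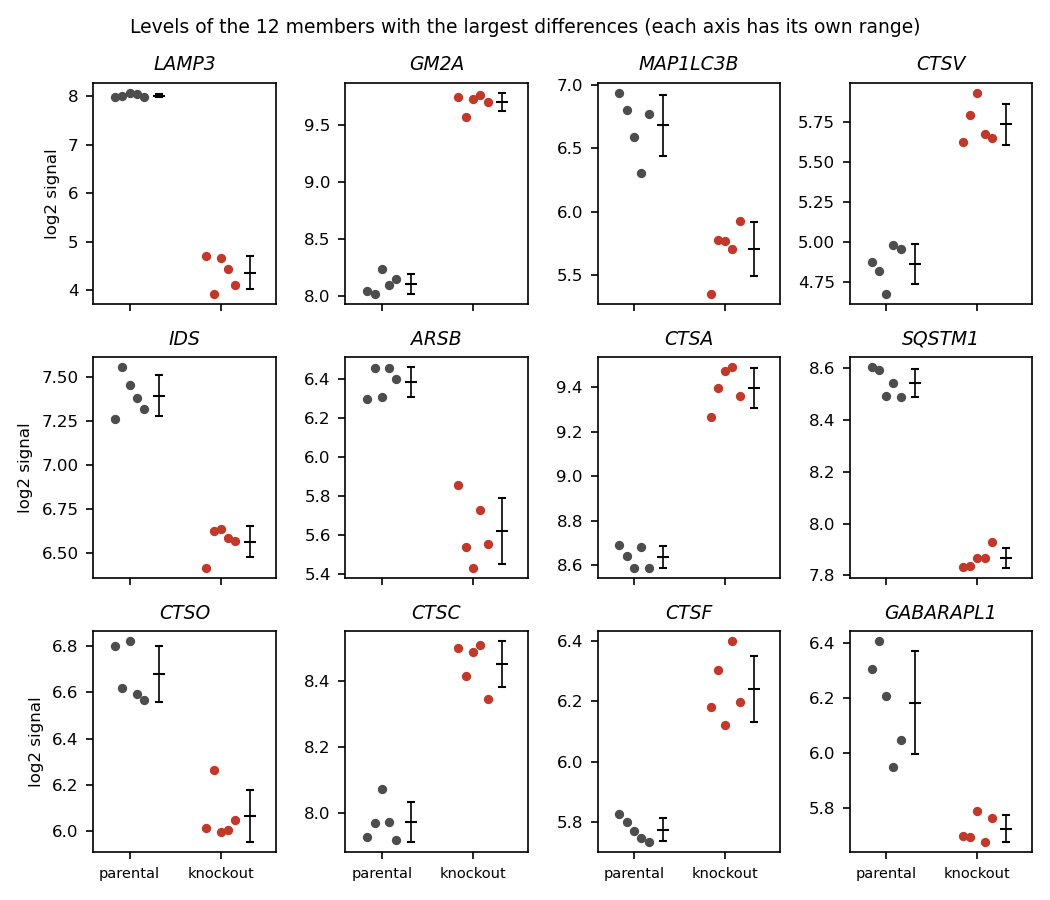
Log2 signal in every array for the 12 genes with the largest absolute differences, parental (grey) and knockout (red), with the mean and SD of 5 arrays beside the points; each panel has its own range. The groups do not overlap in any of the 12 panels, and the parental points of MAP1LC3B and GABARAPL1 are spread more than those of LAMP3.

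Of 5 measured enzymes that degrade sugar chains or remove their sulfate, IDS and ARSB fell and 3 did not pass, where 19.0% of all genes and 31.5% of those above the array midpoint fell. IDS, the sulfatase that removes sulfate from iduronate in heparan and dermatan sulfate, was at 7.26, 7.56, 7.45, 7.38 and 7.32 in parental arrays and at 6.42, 6.63, 6.64, 6.59 and 6.57 in the knockout. It fell by 0.83 ± 0.07 (SE; adjusted p = 8.61e-07). IDS has a neighbouring pseudogene copy with which its probe set may share sequence. ARSB, the sulfatase that acts on dermatan and chondroitin sulfate, was at 6.30, 6.45, 6.31, 6.46 and 6.40 in parental arrays and at 5.86, 5.54, 5.43, 5.73 and 5.56 in the knockout, a fall of 0.76 ± 0.08 (adjusted p = 7.00e-06). In both genes the gap between the groups was wider than the spread within either. ARSA, which acts on sulfated lipid, differed by -0.06 (95% interval -0.20 to 0.07) at a signal under the array midpoint. HEXA, the alpha subunit of beta-hexosaminidase A, differed by -0.14 (-0.28 to -0.01; adjusted p = 0.0946), and NEU1, the lysosomal sialidase, is given above with CTSA.

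GM2A showed the largest rise on the list, while the other 3 measured genes of lipid breakdown did not pass. GM2A encodes the activator that presents the ganglioside GM2 to beta-hexosaminidase A, the enzyme that contains the HEXA subunit. It was at 8.05, 8.02, 8.24, 8.10 and 8.15 in parental arrays and at 9.74, 9.57, 9.72, 9.76 and 9.70 in the knockout. The 2 sets of arrays were tight and far apart, with a rise of 1.59 ± 0.06 (SE; adjusted p = 1.21e-09) that ranked 119 by size among all genes. PSAP, the precursor of the saposins that activate other lipid hydrolases, was at 11.15 ± 0.04 and 11.11 ± 0.04 (SD, n = 5 each), with an interval of the difference from -0.14 to 0.07. ASAH1, the acid ceramidase, differed by 0.01 (-0.12 to 0.14) and PPT1, which removes palmitate from proteins, by -0.05 (-0.16 to 0.05).

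The transcription factors of the lysosomal programme showed small differences. TFEB differed by 0.13 (95% interval -0.04 to 0.29) and TFE3 by -0.04 (-0.22 to 0.15), and neither passed. MITF, best known from melanocytes and osteoclasts, was at 4.15 ± 0.08 in parental and 4.36 ± 0.10 in knockout arrays (SD, n = 5 each), with overlapping arrays and an adjusted p of 0.0251. TFEB and MITF lay under the array midpoint in both groups, and of 6 measured melanocyte markers 5 did too; 1 of those markers, TYRP1, fell (-0.31, but not past the test with the replicate block, adjusted p = 0.0643, nor with each of 6 arrays left out in turn), and 5 did not pass. MITF was not among the genes tested when dim genes were left out, and its call ended in 7 of the other 15 alternatives: with median centring (0.18, adjusted p = 0.0613), with an intensity trend (adjusted p = 0.0713), with the replicate block (adjusted p = 0.0571) and with 4 of the 10 arrays left out in turn. Those were parental replicates 2, 3 and 4 (adjusted p = 0.0624, 0.0603 and 0.0586) and knockout replicate 3 (adjusted p = 0.0612). RNA levels do not show where TFEB and TFE3 lie in the cell, which depends on mTORC1.

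All 3 measured genes of the autophagy group fell, where 19.0% of all genes and 31.5% of those above the array midpoint did. SQSTM1, the receptor p62 that carries ubiquitinated cargo into autophagosomes, was at 8.60, 8.59, 8.49, 8.54 and 8.49 in parental arrays and at 7.83, 7.84, 7.87, 7.87 and 7.93 in the knockout. It fell by 0.68 ± 0.05 (SE; adjusted p = 3.33e-07), with a gap between the groups several times the spread within either. MAP1LC3B, the ubiquitin-like protein that is joined to lipid on autophagosomes, was at 6.94, 6.80, 6.59, 6.31 and 6.77 in parental arrays and at 5.34, 5.78, 5.77, 5.70 and 5.92 in the knockout. It fell by 0.98 ± 0.13 (adjusted p = 3.74e-05), 1.97-fold. GABARAPL1, a relative of MAP1LC3B, was at 6.31, 6.41, 6.21, 5.95 and 6.05 against 5.70, 5.69, 5.79, 5.68 and 5.77, a fall of 0.46 ± 0.08 (adjusted p = 0.000648). In both of these genes parental replicate 4 was the lowest parental array and the groups still did not overlap. The near-identical copy MAP1LC3B2 differed by -0.13 and did not pass (adjusted p = 0.641), and how far its probe set and that of MAP1LC3B share sequence was not tested. Both SQSTM1 and MAP1LC3B are known targets of stress-responsive transcription factors.

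Other autophagy genes also changed, with more falls than rises. Of 28 measured members of an autophagy list without the 3 genes above, 15 fell (53.6%), 3 rose (10.7%) and 10 did not pass, with a median of -0.21; among all genes above the array midpoint 31.5% fell and 24.1% rose. ATG13 and ATG101, which join the ULK kinase complex that starts autophagy, fell by 0.97 and by 0.78. TAX1BP1, a receptor for ubiquitinated cargo, fell by 0.60, and ATG16L1, part of the complex that attaches lipid to the LC3 proteins, fell by 0.59. In these 4 genes all knockout arrays lay under all parental arrays. The 3 rises were ATG14 (0.39), CALCOCO2 (0.29) and ATG2A (0.24). The kinase genes themselves were at -0.05 for ULK1, which did not pass, and -0.21 for ULK2 (adjusted p = 0.0341). Of the other ATG8 family members, GABARAPL2 fell (-0.20), and GABARAP (0.07), MAP1LC3A (-0.07) and MAP1LC3C (0.03) did not pass.

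**Figure D3:**
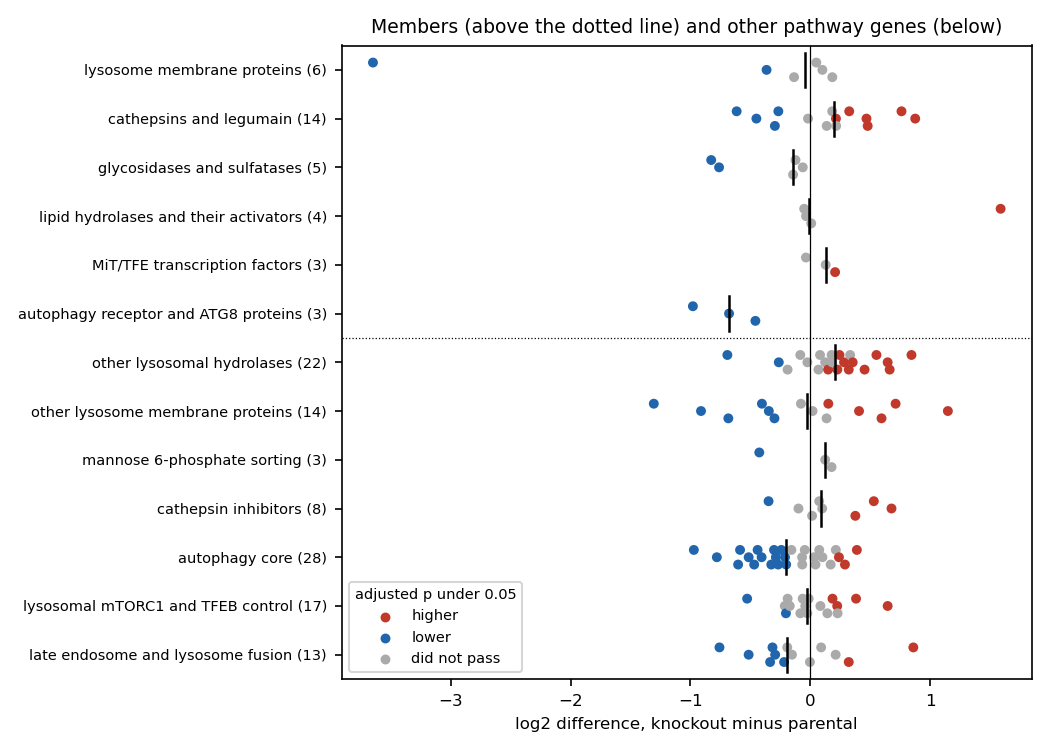
Log2 difference, knockout minus parental, of each measured gene by list, with the number measured in brackets and a black bar at the list median; red genes were higher, blue lower and grey did not pass at an adjusted p of 0.05. Proteases spread to both sides, and the autophagy genes above and below the dotted line lie mostly to the left.

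Other lysosomal genes were counted from lists written from general knowledge. Their counts are to be read against all genes, of which 15.3% rose and 19.0% fell, and against those above the array midpoint, of which 24.1% rose and 31.5% fell, or 55.6% in all. Of 22 genes listed as other hydrolases and their cofactors 11 rose, 2 fell and 9 did not pass (59.1% passed), with a median of 0.20. The rises include TPP2 (0.23), mainly cytosolic, and SUMF1 (0.28), of the endoplasmic reticulum. SCPEP1, a serine carboxypeptidase-like protein, rose by 0.84, GLMP, a lysosomal membrane glycoprotein that stabilises a transporter, by 0.66 and SGSH, a sulfatase of heparan sulfate, by 0.64, while SIAE, a sialic acid esterase, fell by 0.69. SCPEP1 and SGSH lie on chromosome 17 among genes of which 8 and 7 of the nearest 20 rose and 1 and 0 fell. SIAE lies on chromosome 11 among 20 genes of which 10 fell and 0 rose.

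Of 14 genes listed as other lysosomal membrane proteins 5 rose and 6 fell (78.6% passed), with a median of -0.03. The rises include ANPEP (0.59), mainly an enzyme of the cell surface. LAPTM5, known mainly from blood cells, fell from 9.20 ± 0.11 to 7.90 ± 0.13 (SD, n = 5 each), and OSTM1, the partner of the lysosomal chloride transporter, fell by 0.91. TPCN1, a two-pore cation channel, rose from 6.88 ± 0.04 to 8.03 ± 0.13, and LAPTM4B, a relative of LAPTM5, rose by 0.71. Among 8 measured cystatins, which inhibit cysteine cathepsins, 3 rose and 1 fell, or 4 of 8: CSTA (0.68), CST4 (0.53) and CST3 (0.38) rose and CSTB (-0.35) fell. CSTA and CSTB are both cytosolic inhibitors, and they moved in opposite directions. CSTB fell although, of its 20 nearest genes on chromosome 21, 7 rose and 2 fell.

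Sorting and fusion genes were measured in part. Of 3 genes of mannose 6-phosphate sorting, by which new hydrolases reach the lysosome, the receptor gene IGF2R fell by 0.43, and M6PR (0.12) and NAGPA (0.18) did not pass. Of 13 genes for fusion with late endosomes and lysosomes 6 fell and 2 rose, with a median of -0.19. The share that passed, 61.5%, was near that of genes above the array midpoint. VPS11, a shared subunit of the tethering complexes CORVET and HOPS, fell by 0.76, the SNARE gene VAMP7 fell by 0.51 and VPS39, a HOPS subunit, fell by 0.34. VAMP8, the SNARE that joins autophagosomes to lysosomes, rose by 0.86, and the HOPS subunit gene VPS41 by 0.32. VPS11 lies on chromosome 11 among 20 genes of which 10 fell and 0 rose. VPS39 lies on chromosome 15 among 20 genes of which 9 fell and 5 rose. VAMP8 rose although, of its 20 nearest genes on chromosome 2, 6 fell and 2 rose.

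Of 17 genes for control of TFEB and mTORC1 at the lysosome 4 rose, 2 fell and 11 did not pass, a share (35.3%) near that of all genes. RRAGD and RRAGB, 2 of the GTPases that recruit mTORC1, rose by 0.64 and 0.38, DEPDC5, part of a complex that restrains them, by 0.18 and LAMTOR4, part of their anchor, by 0.22 (adjusted p = 0.0498). MTOR fell by 0.53 and FNIP1, a partner of folliculin, by 0.20. FLCN, which encodes folliculin, differed by -0.08 and did not pass. The DEPDC5 call ended with median centring (adjusted p = 0.0762) and without parental replicate 3 (adjusted p = 0.0634), knockout replicate 2 (adjusted p = 0.0607) or knockout replicate 5 (adjusted p = 0.0511).

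The 35 genes lay on 19 chromosomes, and their neighbours on the chromosome were described in the same fit. The median difference of up to 10 named genes on each side ranged from -0.10 to 0.16 over the 35 genes. CTSF, on chromosome 11, had the highest such median, 0.16, with 7 of 20 neighbours higher and 1 lower. The next highest was 0.07. LAMP3 differed by -3.65 in a neighbourhood with a median of -0.09, and GM2A by 1.59 in one of 0.06. Of the 19 genes that passed, 13 had the sign of their neighbourhood median and 6 the opposite sign. The same count over all genes that passed is not given here, so this one has no background to be read against. Some of the medians were near 0, such as 0.003 for GABARAPL1 and -0.014 for CTSB.

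**Figure D4:**
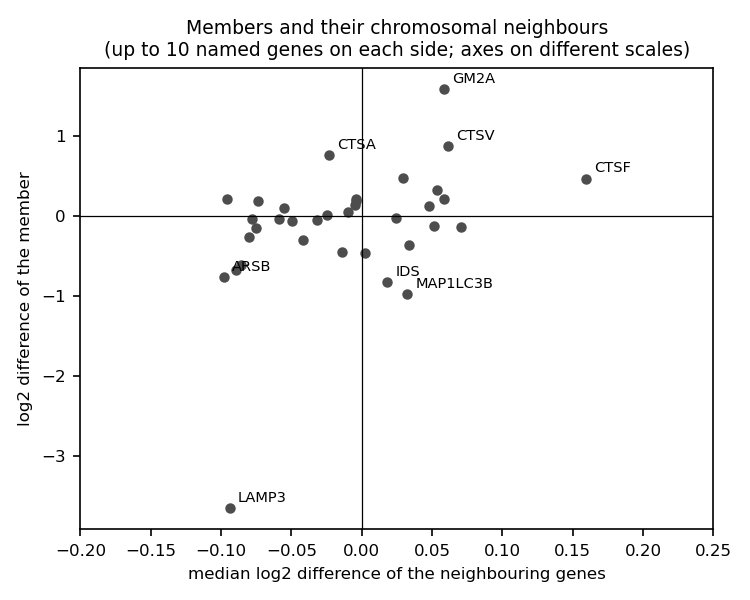
Log2 difference of each of the 35 genes (vertical) against the median log2 difference of up to 10 named genes on each side along the chromosome (horizontal); the axes have different scales. The neighbourhood medians stay between -0.10 and 0.16, and CTSF lies farthest to the right.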

How the data were processed

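Per the file header, the deposited table holds 1 value per probe set and sample; the values are log2 signals already normalised by the authors, judged from their range (1.13 to 13.87). Partek 6.6 and Affymetrix Expression Console are named in the submitters' processing notes; how signals were summarised and filtered is not given in the sources used here. Of 53617 probe sets, 16098 had 1 gene symbol in the platform annotation, 0 had several and 37519 had no gene named here. Symbols were updated by Entrez identifier through RefSeq (GRCh38.p14), and each gene was represented by its brightest probe set on average over the 10 arrays. The test was limma 3.58.1 (lmFit, then eBayes, in R 4.3.3) on all 10 arrays, with no covariate or filter, two-sided, with Benjamini-Hochberg adjustment over 14884 genes; the number of arrays limits the precision, and the median SE was 0.08. Intervals are 95% intervals from the moderated variance, not adjusted for the number of genes. Python 3.11.15 was used for counts, neighbours, motifs and plots.

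Simulated data for the same comparison held 14884 genes, of which 200 were changed. The test recovered 80% of genes shifted by 0.5 (log2) and 99% of genes shifted by 1, with 14 false calls. Far fewer genes were changed there than passed in the real data (34.3%), so these rates need not carry over. The genes and lists were chosen with earlier results of these data known. Every measured gene of the list is named; from each other pathway list, up to 4 genes that passed and whose groups did not overlap, by size; from the marker lists, each gene that passed; and further genes (among them CST4, VPS41, RRAGB, LAMTOR4, FNIP1, FLCN, M6PR, NAGPA, ATG14, CALCOCO2, ATG2A, ULK1, ULK2 and the other ATG8 genes) were chosen after their values were seen. Alternatives were quantile normalisation, median centring, leaving out dim genes, an intensity trend, the mean of all probe sets, a replicate block and each array left out. Of 3 measured fibroblast markers DCN rose (2.06) and 2 did not pass.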

Additional observations from a re-analysis of the deposited data

Results flagged for a closer look

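In each group of 5 arrays, of the 68 genes named by rule, a value was singled out where its gap to the nearest other array exceeded 0.71 of the range of the group. Of 136 groups 9 met this, and chance gives about 1 in 20. Parental replicate 5 was lowest for LAMP1 (9.23, others 9.32 to 9.35) and HEXA (8.11, others 8.21 to 8.24) and highest for TPP1 (8.39, others 8.28 to 8.31). Knockout replicate 1, which stood apart over all genes, was lowest for HEXA (7.86, others 8.09 to 8.11), for the heparan sulfatase gene SGSH (7.86, others 8.11 to 8.16) and for the epithelial gene SFN (10.44, others 10.66 to 10.73). SFN was highest in parental replicate 3 (10.33, others 10.21 to 10.25). CTSO was highest in knockout replicate 2 (6.26, others 5.995 to 6.05), still under every parental array, and CTSH was highest in knockout replicate 3 (5.50, others 5.23 to 5.29).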

How the results depend on the processing

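Of the list's genes, 7 to 10 rose and 11 to 13 fell over all alternatives, beside 8 and 11, and the count over all 14884 genes ran from 4705 to 5248 where all were tested. Without dim genes 4637 of 7442 genes passed, and 29 of the 35 listed genes were tested. The 19 calls kept their direction in each alternative in which they were tested, which for CTSV and MITF leaves out the one without dim genes, and no difference among them moved by more than 1.29 times; MITF was the only one to lose its call. HEXA passed with an intensity trend (-0.14, adjusted p = 0.0458) and when dim genes were left out (adjusted p = 0.0402). CD63 passed with median centring (-0.16, adjusted p = 0.0401), with an intensity trend (adjusted p = 0.0310), without dim genes (adjusted p = 0.0168) and without parental replicate 5 (-0.15, adjusted p = 0.0452). MCOLN1 passed with quantile normalisation (0.20, adjusted p = 0.0346) and without dim genes (adjusted p = 0.0297). Changes of sign were seen only in genes that did not pass: TPP1 (0.023) and PSAP (0.0084) with quantile normalisation, ASAH1 (-0.020) with median centring, and, with an array left out, TPP1 (-0.056 to 0.010), ASAH1 (-0.025 to 0.037) and TFE3 (-0.099 to 0.025). The cause was not tested. The fall of TYRP1 lost its call with the replicate block (adjusted p = 0.0643) and with 6 arrays left out in turn. The replicate numbers were not taken to pair the arrays, since same-numbered arrays correlated at -0.01 to 0.20; with the replicate block 7 genes of the list rose, 11 fell and 4972 of all genes passed.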
